A study of Mus musculus with 24 samples.

Results

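Fibroblasts lacking cGAS taken on day 36 were compared with fibroblasts lacking cGAS taken on day 33. The cells were primary mouse embryonic fibroblasts (cells grown out of dissociated embryos) of strain C57B1/6 and genotype cGAS KO, kept at 20% oxygen, and the earlier group was taken on day 33 at passage 11 and the later group on day 36 at passage 12. Wild-type (WT) fibroblasts of the same strain, oxygen, days and passages, and both genotypes on day 42 at passage 14, are given beside them for comparison. Of the 24 samples of the series, 8 belong to this comparison, 4 numbered samples for each day. Of 45706 genes in the table, 11673 (25.5%) reached 5 CPM (the count as a share of the scaled library total, on the usual CPM scale) on either day in the KO cells and were counted as measured. The labels used here do not say how the knockout allele was made, how many embryos gave the cells, or whether the days come from 1 culture.

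cGAS is the cytosolic DNA sensor that makes the second messenger cGAMP, which activates the adaptor STING and, through it, interferon and inflammatory genes. Primary mouse fibroblasts kept in atmospheric oxygen slow down and many enter senescence, a lasting growth arrest with a secretory program, while some cultures go on to outgrow it. A culture of embryonic fibroblasts is also a mixture: cells keep the HOX and other positional transcription factors of the body region they came from, and cartilage, fat and tendon precursors and macrophages can be carried along. In RNA from a whole culture, fewer cells of a type and less RNA per cell cannot be told apart.

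The 4 columns deposited for a day differed from each other by no more than sampling noise, so they were added up and treated as 1 library. Their mean chi-square per degree of freedom was 0.842 on day 33 (12916 genes with at least 80 counts) and 0.834 on day 36 (12385 genes), against 18.3 between a column of day 33 and a column of day 36. With 1 library per day there is no replicate check, so no p-value is given; intervals are exact 95% counting intervals of the ratio and cover counting error only. Day, passage and library cannot be told apart. The KO libraries held 33636556 counts on day 33 and 25651250 on day 36, and the other 4 libraries 35025184 to 48717439. Mb21d1, the gene of cGAS, had 7.78, 0.46 and 5.36 counts in the KO libraries of days 33, 36 and 42 and 222, 178 and 168 counts in the WT libraries, so it was low in every library labelled KO. Fibroblast markers summed to 27205 CPM on day 33 and 20912 on day 36 (10 of 10 genes above 3 counts on both days), so the markers of the labelled cell type were present on both days. Xist (481 and 455 CPM) and the Y-linked genes Ddx3y (39.2 and 44.0 CPM) and Kdm5d (6.78 and 6.87 CPM) were both present in KO and near level between the days. In the WT libraries Xist was at 0.368 CPM or less and Ddx3y at 122 to 167 CPM, so the 2 cultures differed in these sex-linked genes, and the part of that in the comparisons with WT was not tested.

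Most genes were close to level between the days, and those that differed were mostly lower on day 36. Of the 11673 measured genes, 10800 (92.5%) lay within 1.5-fold, and the median log2 difference (day 36 minus day 33) was -0.03. On this scale 5188 genes lay above 0 and 6485 below 0. At least 2-fold apart were 403 genes (3.45% of those measured), 113 higher (0.968%) and 290 lower (2.48%) on day 36. These shares are the background for the counts of list members given below. The imbalance was larger at higher folds: 22 genes were at least 4-fold higher and 84 at least 4-fold lower, and 4 against 28 passed 10-fold. Of the 290 lower genes, 48 had stood at 100 CPM or more on day 33, and 24 were under 1 CPM on day 36. The minimum was passed through day 33 alone by 143 of the 290 lower genes and through day 36 alone by 61 of the 113 higher ones, so for these, and for the list members among them, the direction follows in part from the minimum. Without a scaling factor between the libraries the median of all genes moves up by 0.11 on the log2 scale, and the counts become 148 higher and 254 lower. The plot of day 36 against day 33 shows the tail of lower genes below the diagonal.

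**Figure D1:**
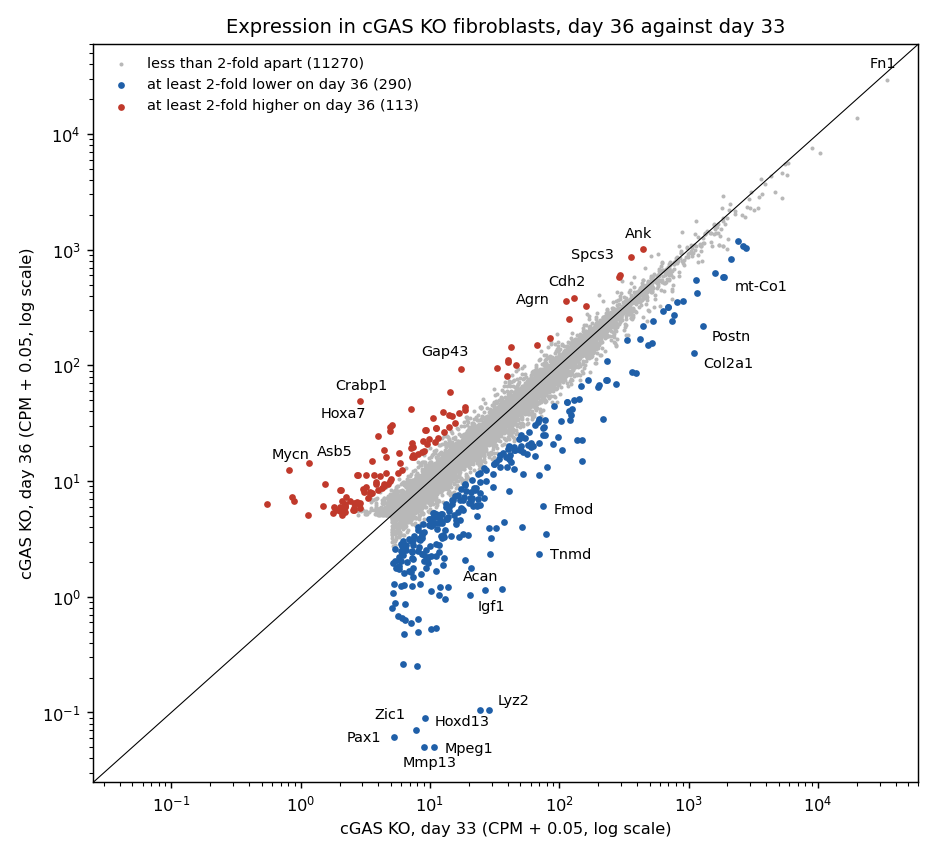
Each point is 1 of the 11673 measured genes, with its level in the cGAS KO library of day 33 on the x axis and of day 36 on the y axis (CPM + 0.05, both log scales). The 113 red points are at least 2-fold higher and the 290 blue points at least 2-fold lower on day 36, and the blue points reach farther from the diagonal, down to Mpeg1 and Mmp13, which had no count on day 36.

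The 3 largest log2 differences downward were of macrophage genes. Lyz2, the macrophage lysozyme (chr10:117277331-117282321, positions of genes from GENCODE vM21 on GRCm38), was at 28.4 CPM on day 33, 0.0547 on day 36 and 0.0126 on day 42, with 943.75, 1.5 and 0.5 counts. From counts rounded to whole numbers, the interval of the ratio starts at 107-fold lower on day 36. Lyz1, whose sequence is close enough to Lyz2 that reads could be split between them, went with it (24.6 and 0.0543 CPM). Mpeg1, a pore-forming protein of macrophages, was at 10.7 CPM on day 33 and had no count on day 36, at least 97.4-fold lower when 3 counts are taken as the floor. Csf1r, the receptor for macrophage colony-stimulating factor, was at 8.55 and 1.51 CPM (5.57-fold lower, interval 4.02 to 7.90). These 4 were the only members of a 26-gene myeloid list above the minimum; each passed it through day 33 alone, so that their common direction supports nothing by itself. A set of 8 macrophage markers, which shares Lyz2 and Csf1r with that list, summed to 54.2 CPM on day 33, 8.16 on day 36 and 7.09 on day 42, and Lyz2 made up the largest part of the difference. Lyz2, Adgre1, Tyrobp and Fcer1g were at or under 3 counts on day 36, while Ptprc (2.67 and 1.99 CPM), Cd68 (3.01 and 1.76 CPM) and Cd14 (4.91 and 2.76 CPM) were under 2-fold. In WT cells the same set summed to 116, 28.0 and 10.2 CPM, and Lyz2 was at 70.9, 12.7 and 1.67 CPM: lower at each later day, but not near 0 on day 36.

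The cartilage genes Col2a1 and Acan and the tendon genes Tnmd and Fmod were lower on day 36. Sox9, a regulator of the cartilage genes, was not. Tendon had no list of its own, and Tnmd and Fmod are named because their differences were large. Col2a1, the main collagen of cartilage (chr15:97975602-98004695), was at 1099 CPM on day 33, 127 on day 36 and 91.2 on day 42, an 8.63-fold difference between the first 2 of these (interval 8.33 to 8.93). The WT libraries held 52.6, 60.5 and 69.4 CPM, so the KO culture of day 33 stood far above every other library. Acan, the cartilage proteoglycan aggrecan, was at 26.6 and 1.1 CPM (24.3-fold lower, interval 16.9 to 36.3), and in WT cells at 5.50 and 1.05. Sox9, the transcription factor that drives cartilage genes, was at 38.5 CPM on day 33 and 41.1 on day 36. Runx2, the bone regulator, was at 39.2 and 20.6 CPM, just short of 2-fold. Of 8 measured cartilage and bone genes 3 were at least 2-fold lower and none higher (median log2 difference -0.96, against -0.03 over all measured genes). The other 5 were under 2-fold, and 3 of the 8 lay above 0. Tnmd, a membrane protein of tendon cells, was at 70.2 CPM on day 33 and 2.31 on day 36, 30.5-fold lower (interval 23.8 to 39.9), and at 3.38 on day 42. Fmod, the tendon proteoglycan fibromodulin, was at 75.1, 5.99 and 12.1 CPM on the 3 days.

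Genes of the matrix were lower more often than higher, and type IV collagen chains lay on both sides. Of 36 measured glycoproteins and crosslinkers 8 were at least 2-fold lower and none higher (median -0.22). Postn, the matricellular protein periostin, was at 1290 CPM on day 33, 218 on day 36 and 281 on day 42 (5.91-fold lower on day 36, interval 5.75 to 6.07), while the WT libraries held 1577 to 2217. Eln, the elastic fibre protein elastin, was at 11.7 and 0.991 CPM, Lama4, a laminin chain of vessel walls, at 70.1 and 11.2, and Tnc, the matricellular protein tenascin-C, at 2794 and 1044. Of 22 collagen chains 6 were at least 2-fold lower and 1 higher (median -0.59). Without a scaling factor 3 of those 6 remain past 2-fold. Col4a1 was at 2115 and 831 CPM and Col4a2 at 1599 and 631, 2.55- and 2.53-fold lower; these are the paired chains of the common type IV network. Col4a6, a chain of a rarer type IV network, was higher, at 4.06 and 11.1 CPM (2.73-fold, interval 2.22 to 3.37). Outside the list, and chosen after their values were seen, Col4a3 (3.54 and 14.9 CPM) and Col4a4 (3.65 and 11.1 CPM), which pair in another such network, were higher as well. Col4a6, Col4a3 and Col4a4 each passed the minimum through day 36 alone, so their direction follows in part from the minimum. The fibrillar chains Col1a1 (10353 and 6821 CPM) and Col1a2 (8938 and 7602 CPM), the bulk of fibroblast collagen, stayed under 2-fold.

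Growth factor, cytokine and protease genes with known roles in the secretory program of ageing fibroblasts were mostly lower or level. Of 17 measured genes of the insulin-like growth factor axis 6 were at least 2-fold lower and none higher. Igf1, the growth factor itself, was at 20.5 CPM on day 33, 0.985 on day 36 and 2.23 on day 42, 20.8-fold lower on day 36 (interval 14.1 to 31.7), and at 11.6, 7.21 and 32 in WT. The binding proteins Igfbp3 (11.9 and 1.16 CPM), Igfbp5 (28.8 and 3.84 CPM) and Igfbp4 (273 and 68.6 CPM) were lower with it. Igfbp2, another binding protein, was at 1839 and 2932 CPM, 1.59-fold higher and so short of the fold used here, and the receptor Igf1r was at 169 and 157 CPM. H19, an imprinted noncoding RNA of the same chromosome domain as Igf2, was at 391 and 86.4 CPM.

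Among 18 measured cytokines and chemokines 6 were at least 2-fold lower and 1 higher (median -0.67). Il6, a cytokine of the senescence-associated secretory program, was at 12.6 CPM on day 33, 1.84 on day 36 and 0.570 on day 42 (6.79-fold lower, interval 5.07 to 9.26), and at 3.59 and 4.38 in the WT libraries of days 33 and 36. Il1rn, the antagonist of the interleukin-1 receptor, was at 150 and 22.8 CPM, and Cxcl12, a chemokine of stromal cells, at 2653 and 1086 CPM. Cxcl1 (5.78 and 3.39 CPM) and Ccl2 (24.1 and 19.3 CPM), which attract neutrophils and monocytes, were under 2-fold. Il34, a ligand of Csf1r, was the higher one, at 2.81 and 5.78 CPM. Of 9 measured complement genes 4 were lower and none higher (median -0.81). Matrix proteases and inhibitors lay mostly under 2-fold (18 of 21 measured), with 2 lower and 1 higher (median -0.35). Mmp13, a collagenase of cartilage and bone, had 298.52 counts on day 33 (8.98 CPM) and none on day 36, at least 82.0-fold lower against a floor of 3 counts. It was at 0.105 CPM on day 42 and at 3.43, 2.09 and 2.49 CPM in WT. Mmp3, the matrix protease stromelysin, lay below the minimum at 3.07 and 0.101 CPM. Plat, the tissue plasminogen activator, was higher at 39.5 and 80.5 CPM (2.04-fold). Plat and Il34 come under 2-fold when some single columns are left out.

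The 250 bases before the start of Mmp13 (RefSeq, build GRCm38.p6, chr9:7272264-7272513, plus strand) are printed because the gene had no count on day 36. The capitals mark 1 match to TGANTCA, the AP-1 motif, whose reverse complement is the same pattern, with its first base 35 bases before the start. Of 32851 promoter windows of this length 2217 (6.75%) hold the motif, and the match is a description of the letters only.

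Mmp13: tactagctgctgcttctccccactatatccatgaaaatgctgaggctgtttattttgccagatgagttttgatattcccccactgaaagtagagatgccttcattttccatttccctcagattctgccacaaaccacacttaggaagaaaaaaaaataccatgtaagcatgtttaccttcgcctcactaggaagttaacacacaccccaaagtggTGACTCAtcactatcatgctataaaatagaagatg

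Positional transcription factors moved in both directions. Zic1, a factor of the dorsal neural tube and somites (chr9:91358058-91365810), was at 7.80 CPM on day 33 and 0.0212 on day 36 (259.48 and 0.58 counts; the counting interval of the ratio starts at 38-fold lower), and at 2.93 and 4.31 in WT. Hoxd13, a factor of the distal limb and genital bud (chr2:74668310-74671599), was at 9.15 and 0.0390 CPM (304.34 and 1.07 counts, with an interval that starts at 44.6-fold lower), and at 22 and 5.84 in WT. Pax1, a factor of the sclerotome from which vertebrae form, was at 5.22 and 0.0114 CPM (at least 47.7-fold lower). Foxd1, a factor of kidney stroma and other mesenchyme, was at 20.6 CPM on day 33, 1.71 on day 36 and 1.21 on day 42, and under 2 CPM in all 3 WT libraries. Foxf1, a factor of gut and lung mesenchyme, was at 11.1 and 1.61 CPM in KO and at 3.79 and 15.0 in WT. Zic1, Hoxd13, Pax1, Foxd1 and Foxf1 each passed the minimum through day 33 alone, so their direction follows in part from the minimum.

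Others were higher. Hoxa7, a factor of the trunk (chr6:52214491-52221854), was at 5.08 CPM on day 33, 30.4 on day 36 and 22.9 on day 42 (5.99-fold higher, interval 5.07 to 7.11), and at 10.3 and 10.2 in the WT libraries of days 33 and 36. Hoxa5 (16.9 and 38.6 CPM) and Hoxa2 (4.94 and 10.3 CPM) from the same cluster were higher as well, and Hoxc8 was at 4.22 and 8.65 CPM. Of 11 measured HOX genes 4 were at least 2-fold higher and 1 lower (median 0.60), while 28 of the 39 on the list did not reach the minimum. Hoxa2 and Hoxc8 passed the minimum through day 36 alone, and Hoxd13 through day 33 alone, so their direction follows in part from it. Of 24 measured limb, facial and flank factors 4 were at least 2-fold higher and 5 lower. The shares over all measured genes were 0.968% higher and 2.48% lower.

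**Figure D2:**
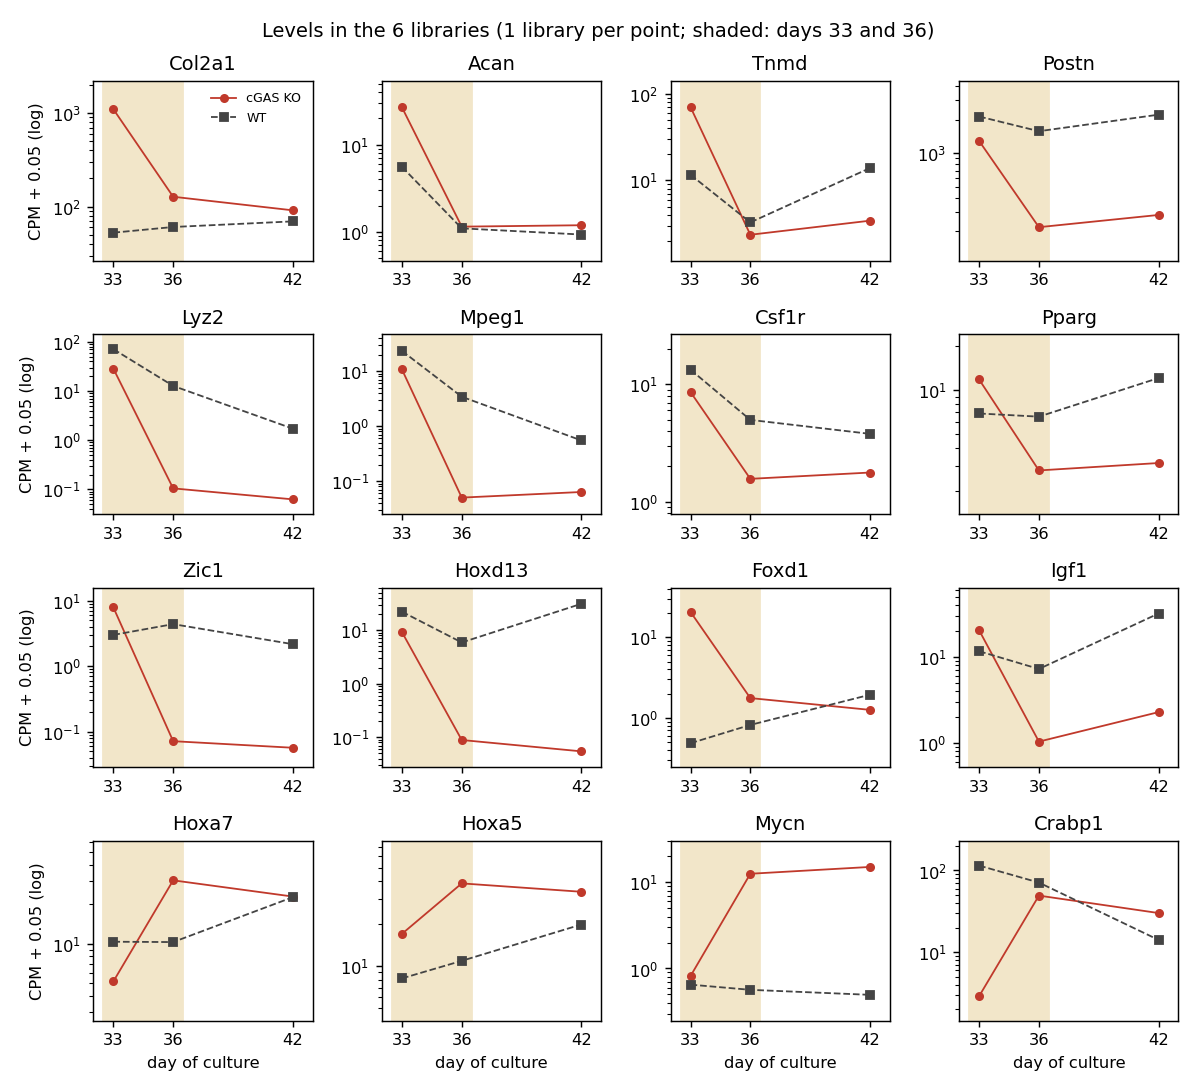
Levels of 16 genes (CPM + 0.05, log scale) against day of culture, with 1 library per point, cGAS KO in red circles and WT in grey squares; days 33 and 36 are shaded. For Zic1 and Hoxd13 the KO points of days 36 and 42 lie under 0.1 on this scale while all WT points lie above 2, and for Mycn the KO points of days 36 and 42 stand above every WT point.

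The largest differences upward were in genes of mixed function. Crabp1, which binds retinoic acid in the cytosol (chr9:54764748-54773110), was at 2.84 CPM on day 33, 49.2 on day 36 and 30.1 on day 42 (17.2-fold higher on day 36, interval 14.0 to 21.4). WT cells held 115, 71.0 and 14.1 CPM, so the KO library of day 33 was the one with the least. Mycn, a MYC family transcription factor of progenitor cells (chr12:12936093-12941914), was at 0.767, 12.5 and 15.0 CPM (16.0-fold higher on day 36, interval 10.7 to 24.9), and at 0.445 to 0.599 in WT. Its relative Myc was at 84.7 and 84.5 CPM. Asb5, a member of a family of ubiquitin ligase adaptors, was at 1.12 and 14.1 CPM, and at 3.66 on day 42. Lad1, an anchoring filament protein of epithelia, was at 0.808 and 7.29 CPM. The growth cone protein Gap43 (17.4 and 93.3 CPM, 5.35-fold, interval 4.89 to 5.87) and the tubulin-binding Stmn2 (4.84 and 26.9 CPM, 5.56-fold, interval 4.69 to 6.64) were the 2 of 6 measured neural and glial genes past 2-fold. Tubb3, a neuronal tubulin on that list, was at 51.2 and 55.4 CPM. Among abundant genes Spcs3, a subunit of the signal peptidase, was at 358 and 864 CPM, and Ank, a pyrophosphate transporter, at 446 and 1023.

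Adipocyte genes were lower as a list: 7 of 11 measured members were at least 2-fold lower, none higher, and all 11 lay below 0 (median -1.62). Over all 11673 measured genes 6485 lay below 0. Pparg, the master regulator of fat cells, was at 11.7 CPM on day 33, 2.74 on day 36 and 3.09 on day 42 (4.3-fold lower, interval 3.35 to 5.58), and at 6.83, 6.49 and 12.0 in WT. Cebpa, its partner, was at 5.17 and 1.02 CPM, and Ebf2, a factor of brown fat precursors, at 8.38 and 1.24. The list also holds Dlk1, a surface protein of fat precursors (69.2 and 21.4 CPM), and Apoe, a lipid carrier that macrophages make too (10.2 and 1.08 CPM). Pparg, Cebpa, Ebf2 and Apoe passed the minimum through day 33 alone, so the direction of these members follows in part from the minimum. Adipoq, which marks mature fat cells, was at or under 3 counts on both days.

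All 13 mitochondrially encoded messages were lower on day 36, and 7 of them at least 2-fold (median -1.12). mt-Co1, a core subunit of cytochrome oxidase, was at 1872 CPM on day 33, 585 on day 36 and 981 on day 42 (3.2-fold lower, interval 3.14 to 3.25). mt-Nd5, of complex I, was at 743 and 242 CPM, and mt-Cytb, of complex III, at 1153 and 421. At the small end mt-Nd3 was at 244 and 218 CPM. Their share of the library was 1.27% on day 33 and 0.694% on day 36. In the WT libraries of the same days the share was 1.88 and 2.38%, and the list's median was 0.43 with none past 2-fold. The nuclear genes of the respiratory chain did not share this: none of 33 was past 2-fold and their median was -0.03. With the mitochondrial genes left out of the totals, 114 genes were at least 2-fold higher and 282 lower.

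**Figure D3:**
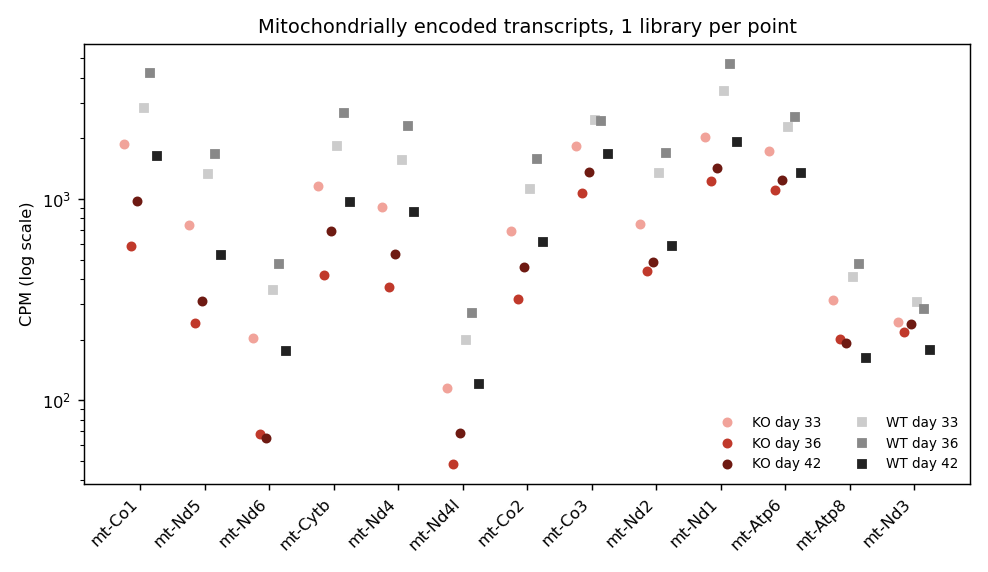
Levels of the 13 mitochondrially encoded messages (CPM, log scale) in each of the 6 libraries, KO in red circles and WT in grey squares, darker for later days, ordered by their difference in KO between days 36 and 33. Each KO point of day 36 lies below that of day 33, and for mt-Co1 the levels are 585 and 1872 CPM.

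Immediate early genes, the fast targets of growth factor and stress signals, were mostly lower, few of them past 2-fold. Of 29 measured, 25 lay below 0 and 3 were at least 2-fold lower (median -0.50, against 0.29 in WT). Over all 11673 measured genes 6485 lay below 0. Egr2 was at 30.6 and 8.78 CPM, Klf2 at 34.4 and 15.3 and Egr1 at 335 and 166 (2.01-fold lower, interval 1.95 to 2.08). The AP-1 subunits Fos (192 and 105 CPM), Jun (122 and 69.3 CPM) and Junb (115 and 71.1 CPM) were under 2-fold. Ptgs2, the inducible prostaglandin synthase, was at 1151 and 551 CPM, and was the 1 gene of 18 on the NF-kB list past 2-fold. Without a scaling factor Ptgs2 and Egr1 come under 2-fold, at log2 differences of -0.951 and -0.898.

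Few of the listed genes that act with cGAS or in the interferon response differed by 2-fold. None of 16 measured genes of cGAS-STING signalling was past it (median -0.14), where the share of all measured genes past it was 3.45%, so that a count of 0 is near the background. Tmem173, the gene of STING, was at 36.1 and 41.5 CPM, and Tbk1, its kinase, at 45.4 and 42.4. Ifnb1, interferon beta, had no count in any of the 6 libraries. Of 18 measured interferon-stimulated genes 2 were at least 2-fold higher and none lower (median -0.20). They were Ifit3 (2.70, 11.2 and 9.47 CPM on days 33, 36 and 42, 4.15-fold higher on day 36, interval 3.27 to 5.31) and Ifit3b (2.71, 11.1 and 9.47 CPM), neighbouring genes of the antiviral Ifit family. Their near-equal values leave it uncertain how reads were divided between the copies, so they count as 1 observation. Ifit2 of the same family was at 27.5 and 36.5 CPM, and Isg15 and Cxcl10 stayed under 2 CPM on both days. Outside the list, and chosen after their values were seen, the interferon-inducible genes Ly6e (66.9 and 151 CPM) and Gvin1 (7.34 and 19.7 CPM) were at least 2-fold higher too.

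The 250 bases before the starts of Ifit3 (chr19:34583279-34583528) and Ifit3b (chr19:34607707-34607956), both on the plus strand in RefSeq's GRCm38.p6, show how alike the copies are: their longest identical run is 169 bases. The capitals mark matches to GAAANNGAAA or its reverse complement TTTCNNTTTC, the core of the element that interferon-activated factors bind. Each holds 2, with first bases 156 and 122 before the start of Ifit3 and 188 and 154 before that of Ifit3b. Of 32851 windows of this length 978 (2.98%) hold a match, and the window of each of 2 annotated starts of Ifit2 holds none.

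Ifit3: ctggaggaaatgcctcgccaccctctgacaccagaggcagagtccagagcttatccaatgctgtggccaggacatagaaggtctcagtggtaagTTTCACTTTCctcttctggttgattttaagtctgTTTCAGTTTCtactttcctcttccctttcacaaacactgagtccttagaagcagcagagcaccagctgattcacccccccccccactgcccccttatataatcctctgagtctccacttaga

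Ifit3b: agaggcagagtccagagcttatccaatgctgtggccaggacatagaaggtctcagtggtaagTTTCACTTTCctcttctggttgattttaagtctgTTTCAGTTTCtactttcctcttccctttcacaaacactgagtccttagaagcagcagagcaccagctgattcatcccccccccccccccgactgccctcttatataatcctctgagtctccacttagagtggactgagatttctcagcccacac

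Cell cycle and senescence genes stayed under 2-fold. None of 20 CDK inhibitors and senescence genes passed 2-fold (median -0.01), which is near the background of 3.45%. Cdkn2a, which encodes p16 and ARF, was at 40.5 and 43.2 CPM, Cdkn1a, which encodes p21, at 411 and 321, and Lmnb1, the lamin that declines in senescent cells, at 73.7 and 75.1. Cdkn2b, which encodes p15, came nearest to 2-fold at 25.1 and 12.9 CPM. Of 46 mitosis genes 42 lay above 0 (median 0.18), and of 40 DNA replication genes 34 did (median 0.12). Over all 11673 measured genes 5188 lay above 0 and 6485 below 0. Mki67, the proliferation marker, was at 228 and 258 CPM. In WT cells the medians of those 2 lists were 0.02 and -0.12. None of 34 p53 targets was past 2-fold, beside 3.45% of all measured genes, and without a scaling factor 1 was at least 2-fold higher. Genes of the unfolded protein and integrated stress responses lay below 0 in 31 of 33 cases (median -0.26), with Hspa5, the chaperone BiP, at 1689 and 1391 CPM. Genes of cholesterol and fatty acid synthesis lay above 0 in 25 of 33 cases (median 0.21), with Fasn, the fatty acid synthase, at 588 and 686 CPM. In all, 15 of 43 lists, with 387 measured memberships, had no member past 2-fold, and their medians ran from -0.26 to 0.21. Because these lists were picked for having no such member, medians near 0 follow in part from that choice. Ribosome biogenesis, cytosolic ribosomal proteins, lysosomal genes, heat shock genes, histones and metallothionein and zinc genes were among them.

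**Figure D4:**
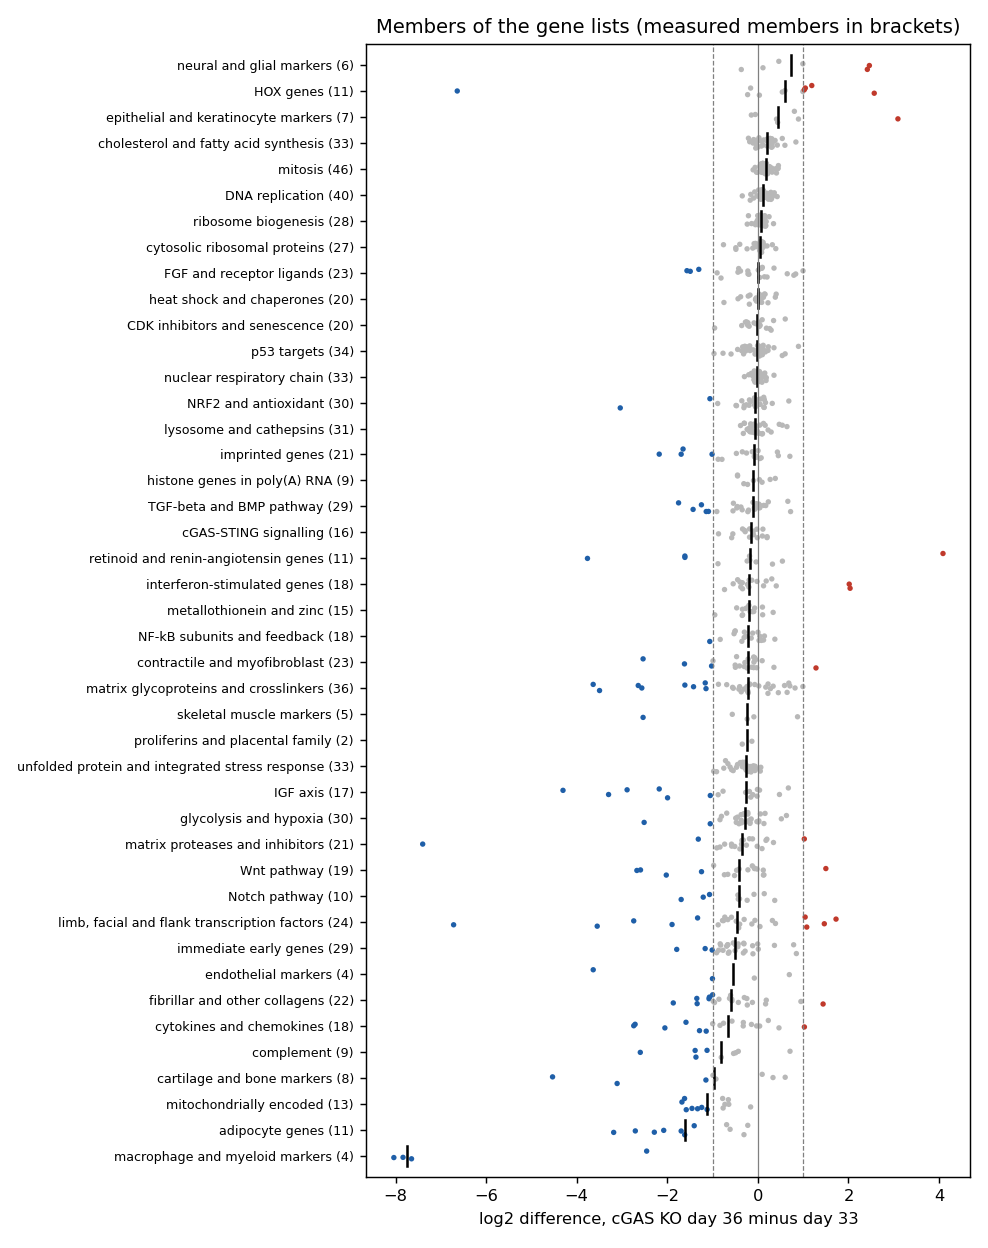
Each point is a measured member of a gene list, placed by its log2 difference in cGAS KO cells (day 36 minus day 33); red and blue mark members at least 2-fold higher or lower, black bars are list medians, and dashed lines mark 2-fold. Macrophage, adipocyte and mitochondrially encoded lists lie lowest, with medians of -7.74, -1.62 and -1.12, while mitosis and DNA replication genes cluster at 0.18 and 0.12. The 4 measured macrophage genes and some adipocyte genes passed the minimum through day 33 alone, so their place follows in part from the minimum.

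Developmental signalling genes past 2-fold were mostly on the lower side, as were all measured genes past 2-fold, of which 28.0% were higher. The shares over all measured genes were 2.48% lower and 0.968% higher. Of 19 Wnt pathway genes 4 were lower and 1 higher. Rspo3, a secreted Wnt amplifier, was at 79.7, 13.2 and 8.82 CPM on days 33, 36 and 42, and Sfrp1, a Wnt antagonist, at 97.4 and 23.9 on the first 2 of these. Wnt2b, a ligand, was the higher one at 2.17 and 6.24 CPM. Of 29 TGF-beta and BMP genes 5 were lower and none higher, among them the ligands Bmp4 (38.5 and 16.2 CPM) and Tgfb2 (58.1 and 26.3 CPM). Of 23 genes of FGFs and related ligands and receptors 3 were lower and none higher, and the list as a whole was balanced, with 12 above 0 and 11 below (median 0.01). Fgf2, a fibroblast mitogen, was at 143 and 50.7 CPM, its receptor gene Fgfr2 at 119 and 40.1, and Notch1 at 54.1 and 23.4. Pdgfra, a receptor that marks fibroblast progenitors, was at 45.7 and 18.5 CPM in KO and at 99.1 and 45 in WT. Eng, a TGF-beta co-receptor on the endothelial list, was at 29.3 and 2.30 CPM (12.7-fold lower, interval 9.86 to 16.7), while the endothelial marker Pecam1 was at or under 3 counts on both days.

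Smaller groups held a few genes past 2-fold each, where 2.48% of all measured genes were lower and 0.968% higher. Of 11 measured retinoid and renin-angiotensin genes 3 were lower and 1, Crabp1, was higher. Dhrs3, which turns retinal back to retinol, was at 13.1 CPM on day 33 and 0.914 on day 36 (14.3-fold lower, interval 9.58 to 22.4), and at 22.5 and 12.6 in WT. Aldh1a3, which makes retinoic acid, was at 8.20 and 2.65 CPM. Of 23 contractile and myofibroblast genes 3 were lower and 1 higher. Mylk, the myosin light chain kinase, was at 20.9 and 6.74 CPM and the actin-binding Synpo2 at 14.9 and 36.3, while Acta2, smooth muscle actin, was at 3506 and 2873. Of 21 imprinted genes 4 were lower and none higher; Mest was at 78.3 and 24.9 CPM in KO and at 9.23 and 2.61 in WT. Of 30 antioxidant and NRF2 genes 2 were lower, among them Sod3, the extracellular superoxide dismutase, at 32.4 and 3.90 CPM. Of 30 glycolysis and hypoxia genes 2 were lower, among them Slc16a3, a lactate exporter, at 19.6 and 3.39 CPM. Without a scaling factor the antioxidant list and the glycolysis list each keep 1 gene at least 2-fold lower.

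Some markers of other cell types moved beside these groups, and their part in them was not tested. Single genes carried several of the sums that follow. The 3 cartilage markers summed to 1164 CPM on day 33 and 170 on day 36, and the 3 adipocyte markers to 16.9 and 4.66. Col2a1 made up most of the cartilage sum (1099 and 127 CPM), while Sox9 was at 38.5 and 41.1. The 5 endothelial markers summed to 13.8 and 10.9 CPM and 6 epithelial markers to 19.9 and 20.7. Among the endothelial markers Kdr was lower (8.03 and 3.98 CPM), while Emcn (0.486 and 1.75) and Cdh5 (0.262 and 0.423) were higher at low levels. The 4 neural and glial markers summed to 57.3 and 83.9 CPM. Stmn2 (4.84 and 26.9 CPM) made up most of that difference, and Sox10 was lower (0.934 and 0.716). Skeletal muscle markers summed to 334 and 315 CPM, nearly all of it Acta1, with Myod1, Myog and Myh3 at or under 3 counts on both days.

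WT cells over the same days, whose libraries are separate from the KO libraries, showed fewer differences. Among the 11673 genes measured in KO, 113 (0.968%) were at least 2-fold apart in WT, 35 higher (0.3%) and 78 lower (0.668%). Over the 11687 genes that reach 5 CPM in WT itself the counts were 37 higher (0.317%) and 117 lower (1.0%), 154 in all (1.32%). Of the 290 genes lower in KO, 40 were also at least 2-fold lower in WT, 13.8% of the KO genes and 51.3% of the 78 WT genes. Of the 113 higher in KO, 5 were also higher in WT (4.42% of the KO genes and 14.3% of the 35 WT genes). The log2 differences of KO and WT correlated across the 11673 genes with a Pearson r of 0.13 and a Spearman rho of -0.04, as a description, since genes are not independent replicates. Shared lower genes included the macrophage genes, Acan (26.6 and 1.1 CPM in KO, 5.50 and 1.05 in WT) and Hoxd13. Zic1, Col2a1 and Mycn were past 2-fold in KO but not in WT, and the difference between the genotypes was not tested because each has 1 library a day.

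**Figure D5:**
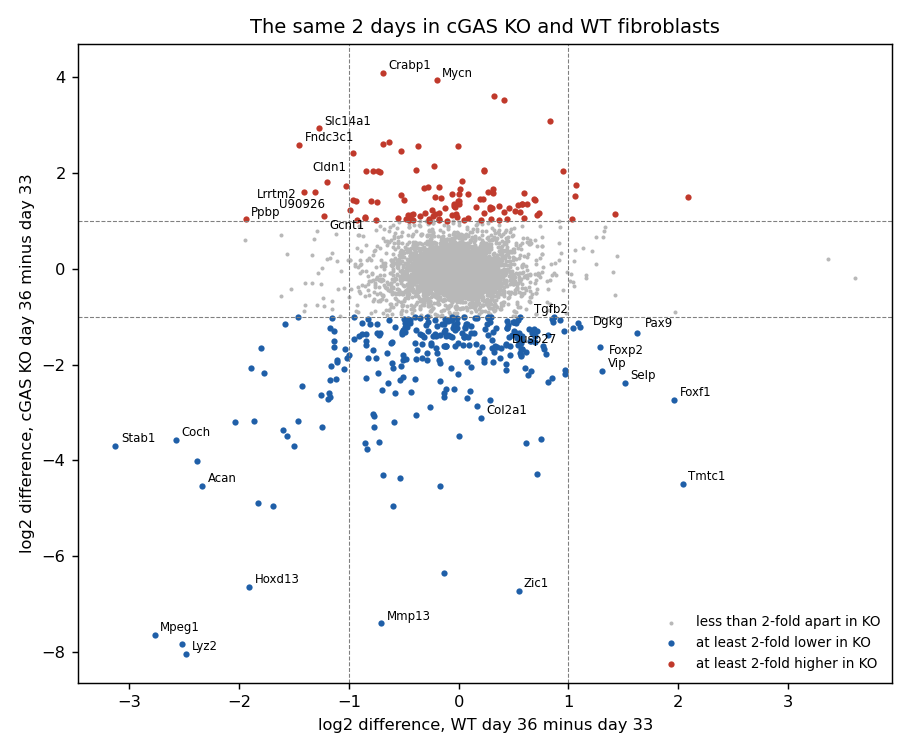
Log2 difference between day 36 and day 33 in WT (x axis) and cGAS KO (y axis) for the 11673 genes measured in KO, with dashed lines at 2-fold and colours by the call in KO. Genes at the lower left, such as Lyz2, Mpeg1 and Acan, were lower in both genotypes, while Zic1 and Mmp13 lie low on the y axis and within 2-fold on the x axis.

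Near the threshold the calls rest on small margins. Col12a1 (log2 difference -1.0) and Sepp1 (-1.0) were just inside the lower side, and Csf1 (747 and 374 CPM, -0.998) and Dmpk (-0.993) just outside it. On the higher side Tnfrsf11a (1.0) and Arhgap29 (1.01) were just inside, and Fgf10 (0.997) and Matn2 (0.993) just outside. At the minimum of 5 CPM, Pygl and Lrp1b were just inside and Palm2 and Zbtb49 just outside. Of the 113 higher genes 72 kept their whole counting interval past 2-fold, as did 222 of the 290 lower genes.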

How the data were processed

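The authors deposited estimated counts per gene (fractional, not normalized) and RPKM values for 24 columns, per the file headers. The submitters' processing notes name mm10, Bowtie2 2.2.1 and limma 3.18.13; which program counted the reads, and whether by strand, is not given in the sources used here, so overlapping, antisense and near-identical genes are uncertain (Gapdh is listed at 4.23 to 7.63 CPM). The transcript table was not used. Members and lists were chosen with earlier results of these data known. The 4 columns of a group were compared by chi-square, summed, and counted as 1 library. Totals were scaled by TMM factors (0.922 to 1.085, edgeR 4.0.16, R 4.3.3) over 6 libraries. Log2 differences of CPM had a prior count of 2, and a gene counted as higher or lower at 2-fold or more, with 5 CPM on either day. Intervals are exact conditional 95% intervals of counts rounded to whole numbers, and a count of 0 was set to 3 for bounds. The procedure was tested on simulated data. Alternatives were DESeq2 1.42.0 size factors, upper-quartile or no factors, other minimums, folds and prior counts, the deposited RPKM values, totals without mitochondrial genes, and leaving out columns. Coordinates are from GENCODE and RefSeq annotation of GRCm38. Without predicted names or pseudogenes, the text names the 12 largest differences each way, up to 4 members past 2-fold of a list (or its 2 most abundant), the 6 largest CPM differences each way, a group of senescence and control genes and the genes nearest each threshold; other genes are given as members of a list or said to be chosen after their values were seen. Some genes named by this rule are not reported here.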

Additional observations from a re-analysis of the deposited data

Results flagged for a closer look

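Some genes differed at least 2-fold in opposite directions in the 2 genotypes between days 33 and 36. With 1 library per genotype and day the difference between genotypes was not tested. Values are log2 differences, day 36 minus day 33. In 9 genes the level was lower in KO and higher in WT. Tmtc1, an endoplasmic reticulum protein that adds mannose to cadherins, stood farthest apart at -4.49 in KO and 2.04 in WT (79.1 and 3.47 CPM in KO, 10.4 and 42.8 in WT). The mesenchymal factor Foxf1 followed at -2.74 and 1.97, the adhesion receptor Selp at -2.38 and 1.52, the neuropeptide Vip at -2.13 and 1.31, and the transcription factors Foxp2 at -1.62 and 1.29 and Pax9 at -1.33 and 1.63. Dusp27 was at -1.25 and 1.05, the lipid kinase Dgkg at -1.21 and 1.11, and the growth factor Tgfb2 at -1.14 and 1.09.

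Others were higher in KO and lower in WT. The urea transporter Slc14a1 was at 2.94 in KO and -1.27 in WT, Fndc3c1 at 2.59 and -1.45, and the tight junction protein Cldn1 at 1.81 and -1.20. U90926 was at 1.60 and -1.31, the synaptic adhesion protein Lrrtm2 at 1.60 and -1.41, the glycosyltransferase Gcnt1 at 1.1 and -1.23, and the platelet chemokine Ppbp at 1.04 and -1.94.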

How the results depend on the processing

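Genes at least 2-fold higher or lower numbered 113 and 290. A minimum of 10 CPM gave 69 higher, 1 CPM gave 238 and 591, and no minimum 781 and 1515. A 3-fold limit gave 34 and 142 and a 1.5-fold limit 295 and 578. Requiring the counting interval to lie past 2-fold left 72 higher. The other settings kept both counts within 1.5 times: no factor (148 and 254), DESeq2 size factors (125 and 273), upper-quartile factors (128 and 273), a prior count of 0.5, RPKM (116 and 236), totals without mitochondrial genes and, added after seeing the data, predicted names left out (102 and 268). Leaving out single columns gave 115 to 124 higher and 270 to 285 lower. The log2 differences of the 165 genes named by rule were recomputed under the 13 settings that can alter them (scaling, prior count, totals, columns). Of 108 past 2-fold 13 came under 2-fold in at least 1 setting, 10 of them without a factor. None of the 108 took the other sign. Without a factor the median of all genes moved by only 0.11, so such a change could hardly occur and its absence shows little. Among the named genes under 2-fold, Lrp1b, Samhd1 and Xist, all near 0, took the other sign. Of 2145 values 316 moved by more than counting error; the cause was not tested. Of 1118 list counts 48 moved by over 1.5 times. The median of 8 lists, all within 0.11 of 0, took the other sign under another scaling, among them the p53 targets, CDK inhibitors and nuclear respiratory chain. Depth limits genes with few counts: 3 counts on day 36 are 0.109 CPM. No paired analysis was possible because the columns of a group are 1 library and no result comes from a test.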

Other observations

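Interferon-inducible GTPases of a further family, chosen after their values were seen, were higher in KO on day 36. Gvin1, the very large interferon-inducible GTPase on chromosome 7, was at 7.34 CPM on day 33, 19.7 on day 36 and 8.19 on day 42 (2.69-fold higher on day 36), and at 4.23, 4.23 and 4.78 in WT. Its predicted neighbours Gm4070 (7.14 and 19.2 CPM), Gm8979 (3.80 and 9.75 CPM) and Gm8989 (3.75 and 9.30 CPM) stood in nearly the same ratio. On chromosome 11, 9930111J21Rik1 (11.1, 28.5 and 41.1 CPM on days 33, 36 and 42), 9930111J21Rik2 (11.1, 28.5 and 41.1 CPM) and Gm5431 (8.79, 22.2 and 32.9 CPM) were higher as well. Copies in each cluster can share reads, so each cluster counts as 1 observation. Ly6e, another interferon-inducible gene, was at 66.9 and 151 CPM in KO and at 96.7 and 78.1 in WT.

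Several secreted and membrane proteins outside the lists were among the genes at least 10-fold lower, also chosen after their values were seen. Penk, the precursor of enkephalin peptides, was at 8.03 and 0.447 CPM, Ret, the receptor of glial cell line-derived growth factors, at 11.1 and 0.489, Abi3bp, a matrix protein, at 51.8 and 3.92, and Stab1, a scavenger receptor of macrophages, at 6.20 and 0.431. Wisp2, a secreted Wnt-induced protein, was at 150 and 15.0 CPM in KO and at 208 and 122 in WT.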
